A study of Mus musculus with 2 samples.

Results

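The replication-dependent histone genes encode the bulk of the chromatin proteins H1, H2A, H2B, H3 and H4, and lie mostly in gene clusters. All genes whose symbol starts with Hist1h, Hist2h, Hist3h or Hist4 were taken, which gave 67 of the 32285 genes listed: 6 H1, 18 H2A, 18 H2B, 12 H3 and 13 H4 genes. On GRCm38, 54 of them lie on chromosome 13, 10 on chromosome 3, 2 on chromosome 11 and 1 on chromosome 6. Their mRNAs were counted in single cells of tumors that RM-1, a mouse prostate cancer line, formed in the prostate of C57BL/6 mice. The genotype was given as wild type, which is not read here as a statement about the cancer line. The control library came from 1 mouse given vehicle, and the ENZ library from 1 mouse given enzalutamide (ENZ), an androgen receptor inhibitor. Each library holds 1 tumor, immune cells had been enriched when the cells were sorted, and the age of the mice was not given in the sources used here. With 1 library per condition no test between conditions was possible, and every interval given is a 95% interval for counting error only.

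Histone proteins package DNA: H2A, H2B, H3 and H4 form the nucleosome core, and H1 binds the DNA that enters and leaves it. These genes are transcribed mainly in S phase, when newly copied DNA needs new nucleosomes. Their mRNAs usually end in a stem-loop that is bound by Slbp, and not in a poly(A) tail. Several of the genes also give longer, polyadenylated transcripts, which are known from cells that have left the cycle. Per the labels the libraries were made with a 3′ kit, which primes on poly(A), so the level of a member reflects both how much of its mRNA was present and how well that mRNA was captured.

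Levels are CPM (counts per 1000000 UMIs), in which the unique molecular identifiers (UMIs) of a gene in all cells of a class are scaled to the total of that class. A UMI counts a molecule once whatever its length, and where a pair of values is given for a class, the control value comes first. The control library held 170830346 UMIs and the ENZ library 162030149. Cancer cells were barcodes with at least 8000 UMIs, at most 20% mitochondrial UMIs, at most 1 Ptprc UMI and at least 5 UMIs of Cacna2d1, Rbfox2, Kif21a and Rhox5 together. They were called dividing at 10 or more UMIs of Top2a, Mki67, Cenpf and Ube2c together. This gave 1249 dividing and 2558 non-dividing cells in the control library, with medians of 32322 and 18051 UMIs, and 1209 and 3081 cells in the ENZ library, with medians of 34100 and 19389 UMIs. The dividing share was 32.8% (Clopper-Pearson interval 31.3 to 34.3%) for control and 28.2% (26.8 to 29.6%) for ENZ cells. The keratin Krt8, which the rule did not use, stood at 432 CPM in dividing and 441 CPM in non-dividing control cells, while the epithelial adhesion gene Cdh1 was low in both, at 0.82 and 0.67 CPM.

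Immune cells were barcodes with at least 2 UMIs of Ptprc, the pan-leukocyte phosphatase gene, 4896 of them control and 3531 ENZ barcodes. Of these, 443 control barcodes (9.05%) also had 5 or more UMIs of the 4 cancer genes, and they held 40.1% of the UMIs of the class. In the ENZ library 210 such barcodes (5.95%) held 27.8%. Krt8 reached 205 CPM in the control immune class. Barcodes with at least 500 UMIs, at most 20% mitochondrial UMIs and at most 1 UMI of the cancer genes were set beside the whole class, 4184 of them control and 3078 ENZ barcodes. In these immune cells without cancer markers Krt8 was at 16.6 and 26.7 CPM. The libraries shared 20 barcodes among 8703 control and 7821 ENZ cancer and immune cells.

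Stem-loops are printed first because they set these genes apart from almost all other mRNAs. A stem-loop of 16 bases was found in the annotated transcript of 46 of the 67 members, in 8 forms (GENCODE M21, GRCm38). The most frequent form was carried by 26 members, and the following sequences show it beside other forms, with the stem-loop in capitals and up to 5 flanking bases on each side.

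Hist1h1e (H1), chr13:23621777-23621802, minus strand: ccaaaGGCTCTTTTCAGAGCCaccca

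Hist1h2ab (H2A), chr13:23751567-23751592, plus strand: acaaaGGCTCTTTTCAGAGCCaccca

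Hist1h3c (H3), chr13:23745042-23745067, minus strand: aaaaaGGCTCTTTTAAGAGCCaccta

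Hist2h2ac (H2A), chr3:96220413-96220438, minus strand: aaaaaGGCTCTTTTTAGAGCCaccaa

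Hist1h4d (H4), chr13:23581945-23581970, plus strand: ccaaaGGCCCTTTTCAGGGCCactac

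Hist1h4i (H4), chr13:22040961-22040986, minus strand: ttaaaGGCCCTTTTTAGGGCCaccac

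The stem differed by histone type at position 4, counted from the 5′ end of the stem-loop. All 12 H4 stem-loops had C there, and all 34 of the other types had T. The distance from the stem-loop to the annotated end of the transcript also differed among members, from 3 bases in Hist1h2ap to 4884 bases in Hist1h1d. In 23 members the transcript ran over 100 bases past the stem-loop, here called extended, and in 23 it ended within 100 bases of it. Of the 21 members without a match, 16 had a transcript length that is a multiple of 3, so their gene models may hold no 3′ end to search, as had 12 of the 46 with a match. Members also resemble each other in sequence. For 27 of them fewer than 50% of the 90-base stretches of the transcript were found in no other gene, and for Hist2h3c1, Hist2h2aa2 and Hist1h2bq none were. Values of such members, among them Hist1h2ap (7.63% of stretches unique), Hist2h2aa1 (11.5%) and Hist1h2an (16.1%), are uncertain because reads may be shared with a copy. In 7 members the gene overlapped another gene on the same strand, among them Hist1h1e, which overlaps Hist1h2be.

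Histone mRNA was abundant in dividing cancer cells. The summed level of all 67 members in these cells was 3115 CPM (3099 to 3131) in control and 3682 CPM (3665 to 3699) in ENZ cells. In non-dividing cancer cells it was 995 CPM (987 to 1004) and 1238 CPM (1230 to 1247). At least 1 UMI was found for 65 members over the cancer and immune classes. Hist1h2ba, a testis H2B gene, and its neighbour Hist1h2aa had none, which allows up to 0.0211 CPM for control and 0.0217 CPM for ENZ cells from 3 counts. Hist1h1t, the testis H1 gene, had 17 UMIs in all. A few members carried most of the signal. The 5 members with the most UMIs held 53.2% of histone UMIs in dividing and 66.7% in non-dividing control cells, and the leading 30 held 94.6% and 95.6%.

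**Figure D1:**
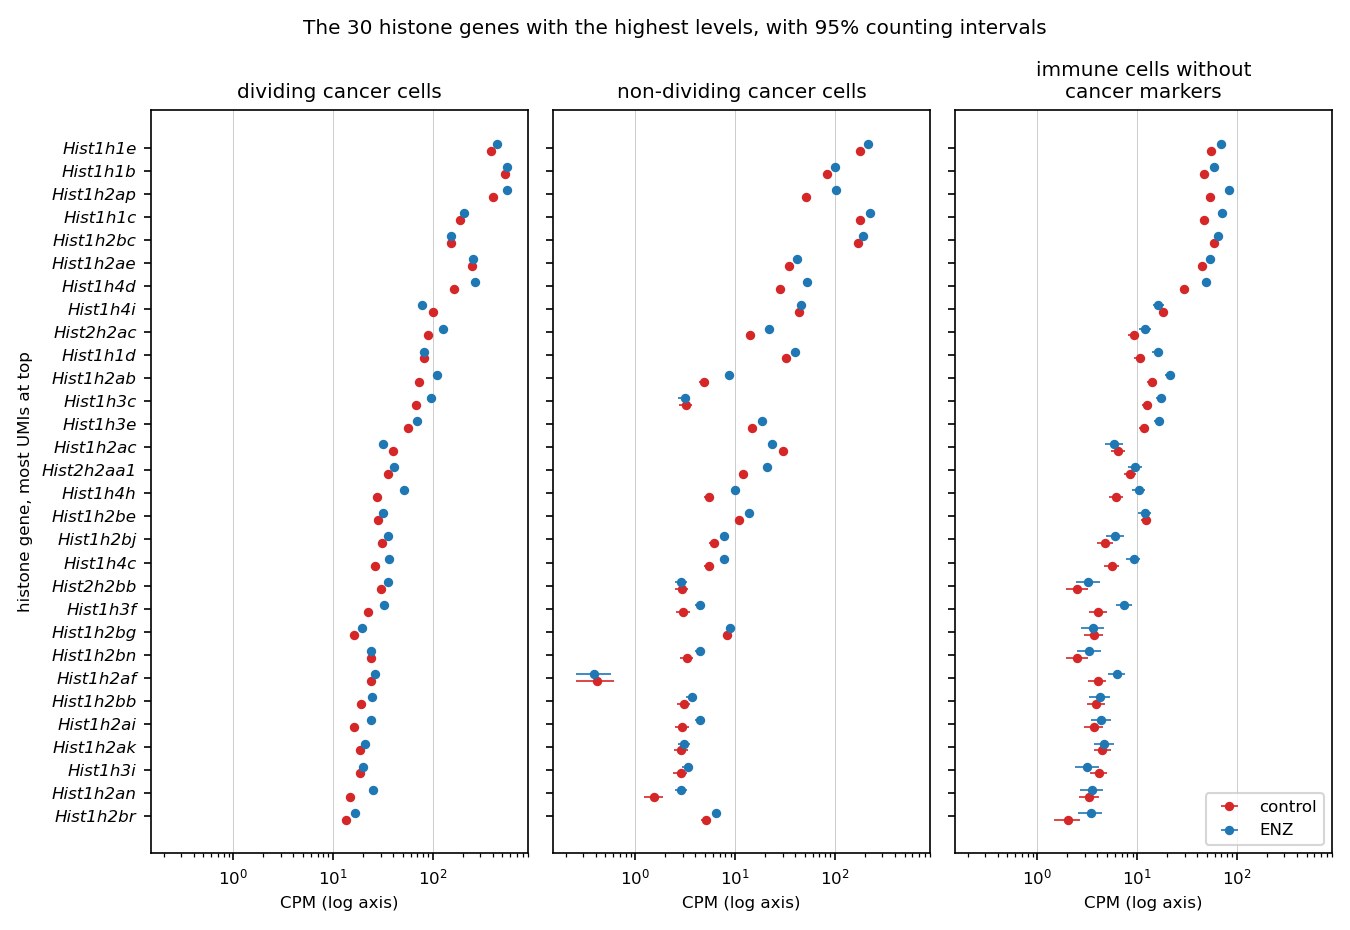
CPM (log axis) of the 30 histone genes with the highest levels, in control (red) and ENZ (blue) cells of each class, with 95% counting intervals as bars. Hist1h1c and Hist1h2bc sit near the same level in dividing and non-dividing cancer cells, whereas Hist1h2af and Hist1h3c fall by more than an order of magnitude.

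Among the H1 genes, Hist1h1b was the most abundant in dividing cells, at 530 CPM in control and 561 CPM in ENZ cells. In non-dividing cells it was at 83.0 and 101 CPM. Hist1h1e had 388 and 442 CPM in dividing and 179 and 213 CPM in non-dividing cells. Hist1h1c had a flat profile, with 190 CPM in dividing and 178 CPM in non-dividing control cells and 206 and 225 CPM in the ENZ library. Hist1h1d, another somatic H1 gene, had 82.5 and 82.1 CPM in dividing and 32.3 and 40.1 CPM in non-dividing cells. All 6 H1 genes together made up 38.2% of histone UMIs in dividing and 47.5% in non-dividing control cells, the largest share of the 5 types in each.

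The H2A genes were led by Hist1h2ap, with 398 CPM in control and 561 CPM in ENZ dividing cells and 51.3 and 104 CPM in non-dividing cells. Hist1h2ae had 246 and 252 CPM in dividing and 34.8 and 41.8 CPM in non-dividing cells. Hist2h2ac, from the chromosome 3 cluster, had 89.7 and 125 CPM in dividing and 14.3 and 21.6 CPM in non-dividing cells. Hist1h2ab was lower, with 72.2 and 111 CPM in dividing and 4.87 and 8.61 CPM in non-dividing cells. Hist1h2ac and Hist3h2a did not share this drop. Hist1h2ac had 40.3 and 31.6 CPM in dividing and 30.6 and 23.4 CPM in non-dividing cells. Hist3h2a, on chromosome 11, had 14.7 and 11.8 CPM in dividing and 10.4 and 7.88 CPM in non-dividing cells. Hist2h2aa1 had 35.7 and 41.3 CPM in dividing cells, and Hist1h2ai, Hist1h2ak and Hist1h2an lay between 14.7 and 25.2 CPM. Hist1h2af was the opposite case, with 23.9 and 26.2 CPM in dividing and 0.41 and 0.39 CPM in non-dividing cells.

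In the H2B genes 1 member dominated. Hist1h2bc reached 153 CPM in control and 154 CPM in ENZ dividing cells, and 172 and 191 CPM in non-dividing cells. Over each class as a whole its level was thus higher in non-dividing cells in both libraries. Within the dividing class it varied with the S phase genes and was not low in every group of cells, as given below. Hist2h2bb had 30.5 and 35.4 CPM in dividing and 2.91 and 2.87 CPM in non-dividing cells. Hist1h2bj, at 31.3 and 35.6 CPM, and Hist1h2be, at 28.2 and 31.7 CPM, followed in dividing cells, and were at 6.15 and 7.80 CPM and at 10.9 and 13.7 CPM in non-dividing cells. Hist1h2bb, Hist1h2bg and Hist1h2bn lay between 16.2 and 24.7 CPM in dividing cells.

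The H3 genes had the lowest summed level of the 5 types, 212 CPM in dividing and 36.9 CPM in non-dividing control cells. Hist1h3c had 68.4 CPM for control and 95.6 CPM for ENZ dividing cells and 3.21 and 3.11 CPM in non-dividing cells. Hist1h3e, at 56.5 and 70.1 CPM in dividing cells, kept 14.6 and 18.7 CPM in non-dividing cells. Hist1h3f had 22.5 and 32.3 CPM and Hist1h3i 18.6 and 19.9 CPM in dividing cells. The H4 genes encode 1 protein from many copies. Hist1h4d had 165 and 263 CPM in dividing and 28.2 and 52.7 CPM in non-dividing cells. Hist1h4i had 101 and 77.6 CPM in dividing and 44.1 and 45.8 CPM in non-dividing cells. Hist1h4h had 27.8 and 51.2 CPM, and Hist1h4c 26.4 and 36.8 CPM, in dividing cells. The 37 members outside the 30 of highest level reached at most 15.5 CPM in dividing or non-dividing cancer cells.

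Members were set against all genes for the comparison of dividing with non-dividing cancer cells. Of the 60 members with at least 20 UMIs in the control cells compared, 53 were at least 2-fold higher in dividing cells, where 4.64% of all 17321 genes tested were, and 0 were 2-fold lower, where 5.94% of all genes were. In the ENZ library 50 of 59 were higher, against 4.95% of all genes, and 0 were lower, against 6.68%. The median log2 ratio of the members was 2.12 for control and 2.25 for ENZ cells, and that of all genes was -0.10 and -0.06. The control members below 2-fold were Hist1h1c, Hist1h2bc, Hist1h2ac, Hist1h2bg, Hist3h2a, Hist2h2ab and Hist2h3c1. In the ENZ library Hist1h4i, Hist2h2aa1 and Hist2h3c2 joined them and Hist1h2bg, at 2.21, passed. A cell class was not replicated within a library, so these are counts and not a test. H2A genes as a sum were 5.84-fold higher (5.71 to 5.97) in dividing control cells, H3 genes 5.75-fold (5.48 to 6.04), H4 genes 3.77-fold (3.66 to 3.89), H1 genes 2.52-fold (2.48 to 2.55) and H2B genes 1.63-fold (1.59 to 1.67). The place of H2B rested on Hist1h2bc, without which the other 17 H2B genes were 4.31-fold (4.12 to 4.50) higher in control and 4.22-fold (4.07 to 4.39) in ENZ cells. The intervals of H2A and H3 overlapped there, whereas in the ENZ library H3, at 6.56-fold (6.29 to 6.84), lay above H2A, at 5.18-fold (5.09 to 5.27).

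Single members covered a wide range. Hist1h2af had the highest ratio, 58.6 (38.5 to 93.95) for control and 67.7 (46.0 to 104) for ENZ cells. Hist1h2ah followed with few UMIs, at 45.7 (19.2 to 142) and 34.5 (17.8 to 76.4). Hist1h3b was at 27.3 (17.3 to 45.8) and 32.5 (22.8 to 47.9), and Hist1h3c at 21.3 (18.3 to 24.99) and 30.7 (26.7 to 35.5). These 4 encode H2A or H3. Hist1h1b and Hist1h2ap were at 6.38 (6.18 to 6.59) and 7.76 (7.46 to 8.08) in the control library. At the low end, Hist1h1c had ratios of 1.06 (1.03 to 1.10) for control and 0.918 (0.895 to 0.942) for ENZ cells, and Hist1h2bc had 0.890 (0.863 to 0.918) and 0.805 (0.782 to 0.829). Those of Hist1h2ac were 1.32 and 1.35, and those of Hist3h2a 1.41 and 1.49.

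The annotated 3′ end went along with this ratio. Among the members with at least 20 UMIs, the median log2 ratio in the control library was 1.29 for 21 extended members, 2.36 for 21 members ending within 100 bases of the stem-loop and 2.70 for 18 members without a match. In the ENZ library the medians were 1.17, 2.36 and 2.57. Extended members, such as Hist1h1c (840 bases past the stem-loop), Hist1h2ac (2010 bases) and Hist3h2a (1643 bases), held 45.6% of histone UMIs in dividing and 59.9% in non-dividing control cells. Members ending close to the stem-loop held 26.4% and 11.7%. The ranges overlapped, since extended Hist1h2ae had a log2 ratio of 2.82 and Hist1h4d one of 2.55 in the control library. Hist1h2bc, which had the lowest ratio of the members compared, has a gene model of 2 exons and no stem-loop match in the transcript used here. This is a description over members, which share libraries and in part sequence.

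**Figure D2:**
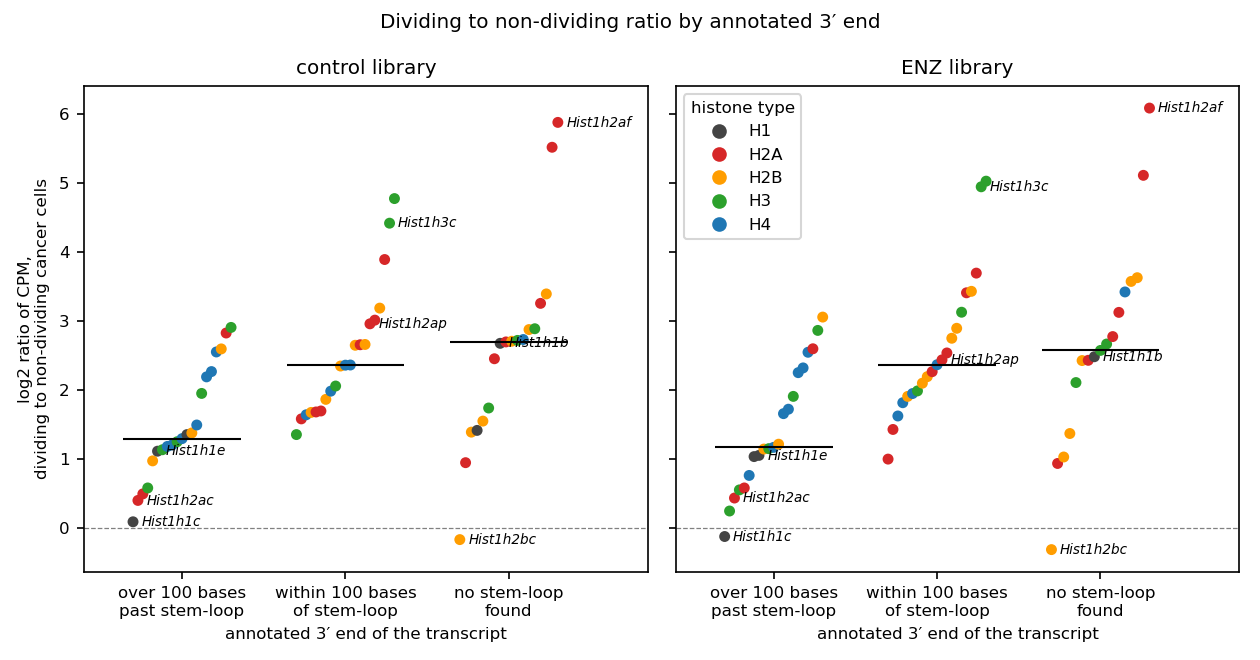
log2 ratio of CPM in dividing to non-dividing cancer cells for members with at least 20 UMIs, ordered within each class of annotated 3′ end and coloured by histone type, with black lines at the class medians. The extended members have the lowest medians, 1.29 for control and 1.17 for ENZ cells, and the classes overlap. The lowest single ratio is that of Hist1h2bc, which has no stem-loop match.

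Because dividing cells held more UMIs, cancer cells were also thinned to 8000 UMIs each and no cell was left out. The median cell then had 24 histone UMIs in the dividing and 6 in the non-dividing control class, and 26 and 8 in the ENZ library. A histone UMI was found in 99.4% of dividing (98.8 to 99.8%) and 97.3% of non-dividing (96.6 to 97.9%) control cells after thinning, and in 100% and 99.4% before it. For Hist1h3c the shares were 38.5% and 2.42% after thinning and 72.1% and 6.02% before. For Hist1h2bc they were 46.3% and 47.2% after thinning. Shares for Hist1h1b were 80.7% in dividing and 32.7% in non-dividing cells.

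Along the division genes the histone level rose and then fell. In thinned control cells the summed level was 970 CPM in the 1508 cells with 0 UMIs of the 4 division genes, 1728 CPM in 303 cells with 3 to 5 UMIs, 4410 CPM in 428 cells with 11 to 20 UMIs and 3211 CPM in 349 cells with over 20. The ENZ cells followed the same course, with 1227, 2059, 4859 and 3628 CPM. The summed level of 24 S phase genes, which encode replication factors such as Pcna and Mcm2, peaked earlier, at 2190 CPM in control cells and 2243 CPM in ENZ cells that had 6 to 10 UMIs. Hist1h2bc stood at 173 CPM at 0 UMIs and 236 CPM at 3 to 5 UMIs in the control library, and then at 116 CPM at 11 to 20, where the summed level was highest, and 233 CPM above 20.

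**Figure D3:**
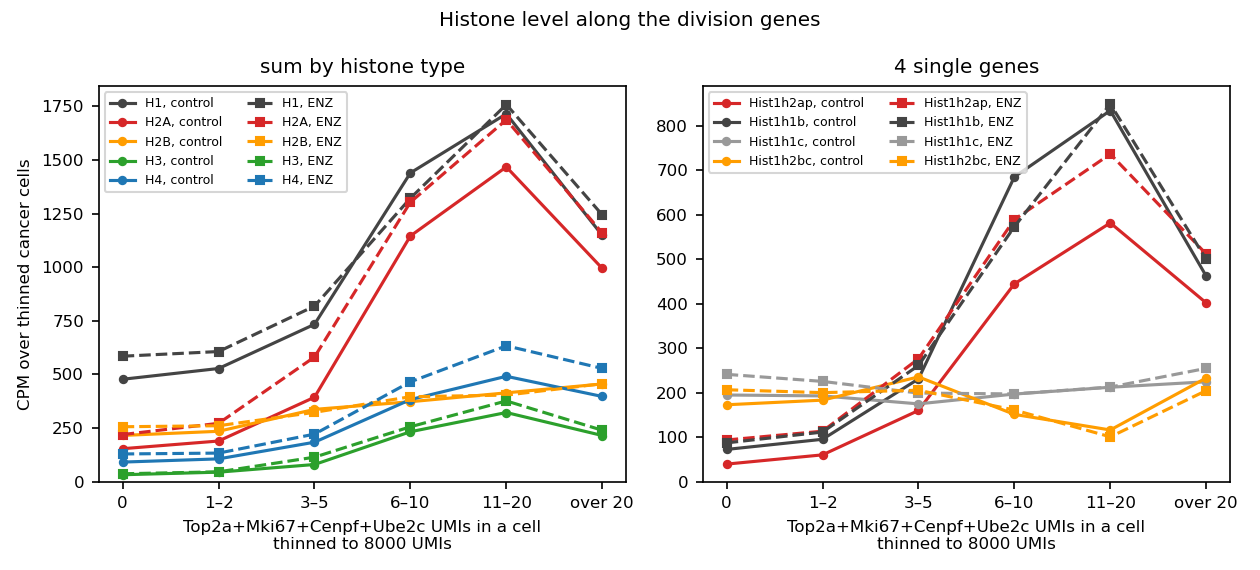
CPM over thinned cancer cells, summed by histone type (left) and for 4 genes (right), against the number of division gene UMIs in the cell, in control (solid) and ENZ (dashed) cells. The sums of H1, H2A, H3 and H4 genes peak at 11 to 20 UMIs, where Hist1h2bc is at its lowest.

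Within the dividing class, thinned cells were also grouped by their UMIs of the S phase genes. From 126 control cells with 0 to 5 such UMIs to 526 cells with 15 or more, the summed histone level went from 2869 to 4122 CPM, Hist1h1b from 302 to 861 CPM and Hist1h2ap from 333 to 550 CPM. Hist1h2bc went from 358 to 83.4 CPM, Hist1h1c from 253 to 186 CPM and Hist1h2ac from 54.6 to 36.6 CPM. The ENZ cells gave 3265 to 4304 CPM for the sum, 352 to 804 CPM for Hist1h1b and 345 to 72.4 CPM for Hist1h2bc. Even among non-dividing control cells Hist1h2bc was lower with 15 or more S phase UMIs, at 76.2 CPM in 141 cells, than with 0 to 5, at 200.3 CPM in 1812 cells. Hist1h3c was at 15.1 and 1.93 CPM in the same cells. Their summed histone level differed little, at 1045 CPM with 15 or more and 1037 CPM with 0 to 5 S phase UMIs. In non-dividing ENZ cells these sums were 1348 and 1282 CPM.

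The ENZ library had higher summed histone levels in dividing, non-dividing and immune cells. The ratio of ENZ to control was 1.18 (1.17 to 1.19) in dividing cells and 1.24 (1.23 to 1.26) in non-dividing cells. By type it was highest for H4, at 1.33 (1.30 to 1.35), and H2A, at 1.27 (1.25 to 1.28), in dividing cells, and for H2A, at 1.43 (1.39 to 1.47), in non-dividing cells. H2B genes were at 1.08 (1.06 to 1.11) and 1.12 (1.10 to 1.15), and at 0.955 (0.918 to 0.995) in the whole immune class but 1.08 (1.02 to 1.15) in immune cells without cancer markers. Barcodes with 10 to 100 UMIs, too few for a cell and taken here as free RNA, reached 1128 CPM for control and 1321 CPM for ENZ barcodes, which gave a ratio of 1.17 (1.08 to 1.27). It amounted to 0.0605 and 0.0901 histone UMIs per barcode, against 20.995 and 26.99 per non-dividing cell. With free RNA subtracted, the log2 ratio of the summed level was 0.24 in dividing, 0.32 in non-dividing and 0.16 in immune cells, against 0.24, 0.32 and 0.17 without subtraction.

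Of 60 members in dividing cells, 6 were at least 1.5-fold higher in the ENZ library, where 4.19% of all genes were, and 1 was 1.5-fold lower, where 8.46% were. Hist1h4h had a ratio of 1.84 (1.72 to 1.97). Hist1h4k, with 6.76 CPM in control and 12.4 CPM in ENZ cells, had 1.84 (1.598 to 2.11), and Hist1h2an, with 14.7 and 25.2 CPM, had 1.72 (1.56 to 1.89). Of these 6, Hist1h4d, Hist1h4h and Hist1h4k encode H4. Hist1h3b, with 9.61 and 15.5 CPM, had 1.61 (1.43 to 1.82), Hist1h4d 1.60 (1.55 to 1.64) and Hist1h2ab 1.54 (1.47 to 1.61). The lower member was Hist2h3c2, at 0.663 (0.476 to 0.919) from 96 UMIs (2.07 CPM) and 64 UMIs (1.37 CPM). Among the leading members past no threshold, Hist1h2ap was at 1.41 (1.38 to 1.44), Hist1h1b at 1.06 (1.04 to 1.08), Hist1h2bc at 1.01 (0.975 to 1.04), Hist1h4i at 0.765 (0.732 to 0.799) and Hist1h2ac at 0.784 (0.732 to 0.840). H4 genes thus moved unequally, with Hist1h4d and Hist1h4h above 1.5-fold and Hist1h4i below the level of the control.

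In non-dividing cells 9 of 58 members were at least 1.5-fold higher in the ENZ library, against 3.58% of all genes, and 4 were lower, against 8.14%. Hist1h2ap had the highest of these ratios, 2.03 (1.94 to 2.12). Hist1h2an was at 1.88 (1.44 to 2.46), Hist1h4d at 1.87 (1.76 to 1.99), Hist1h4h at 1.83 (1.59 to 2.11) and Hist1h2ab at 1.77 (1.52 to 2.05). Hist2h2aa1 was at 1.73 (1.57 to 1.90), Hist2h2ac at 1.52 (1.39 to 1.66), Hist2h2be at 1.52 (1.08 to 2.15) and Hist1h2ai at 1.501 (1.23 to 1.83). All but Hist2h2be, Hist1h4d and Hist1h4h of these encode H2A. The 4 lower members had at most 144 UMIs in either library and were Hist1h2bl, Hist1h3a, Hist1h3g and Hist2h4, at 0.506, 0.602, 0.402 and 0.636. Hist1h2ac was again lower in the ENZ library, at 0.765 (0.714 to 0.821), and Hist1h2bc was at 1.11 (1.08 to 1.14). In free RNA the ratios of the 10 members with the most UMIs ran from 0.825 (0.556 to 1.23) for Hist1h4i to 1.92 (1.09 to 3.52) for Hist1h1d, whose ratio was 0.995 in dividing and 1.24 in non-dividing cells. Free RNA gave 1.73 (1.004 to 3.09) for Hist2h2ac, 1.45 (1.15 to 1.84) for Hist1h2ap, 1.45 (0.976 to 2.18) for Hist1h4d, 1.26 (1.003 to 1.58) for Hist1h1c, 1.20 (0.863 to 1.69) for Hist1h2ae, 1.09 (0.845 to 1.40) for Hist1h1b, 1.06 (0.822 to 1.38) for Hist1h1e and 0.990 (0.794 to 1.24) for Hist1h2bc.

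**Figure D4:**
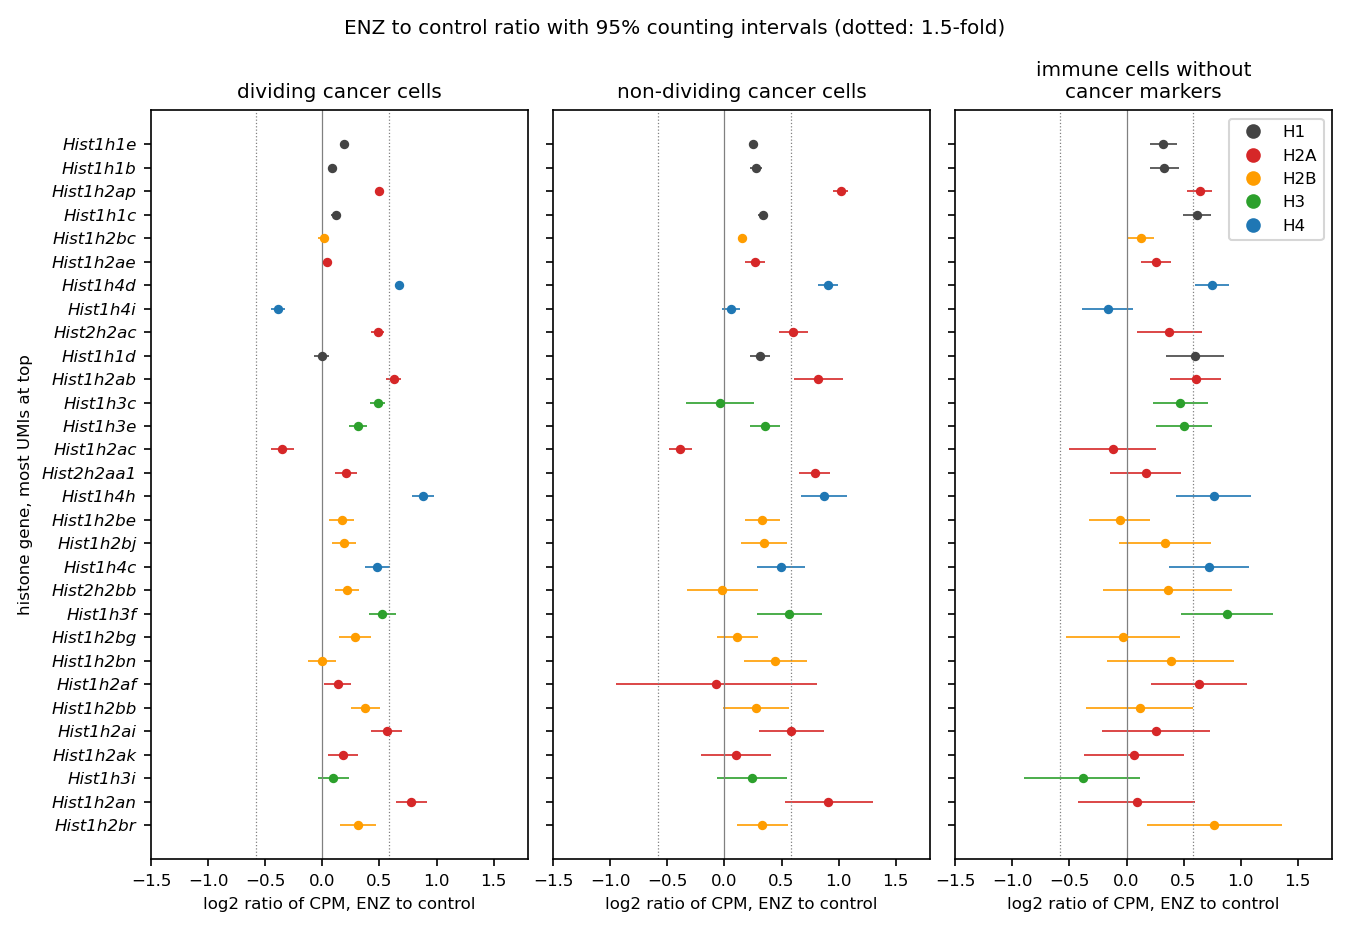
log2 ratio of CPM in ENZ to control cells of each class for the 30 histone genes with the highest levels, coloured by type, with 95% counting intervals and dotted lines at 1.5-fold. Hist1h2ap, Hist1h4d, Hist1h4h and Hist1h2ab lie to the right of 0 in every panel, and Hist1h2ac lies to the left in both cancer panels.

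In the immune cells as defined by Ptprc the summed level was 993 CPM (983 to 1002) in control and 1113 CPM (1100 to 1126) in ENZ cells, which gave a ratio of 1.12 (1.10 to 1.14). In immune cells without cancer markers it was lower, 558 CPM (548 to 567) and 716 CPM (703 to 729), and the ratio was 1.28 (1.25 to 1.32). In the whole class 11 of 61 members were at least 1.5-fold higher in the ENZ library, against 8.69% of all genes, and 4 were lower, against 9.13%. Hist1h4d, Hist1h4h and Hist1h2ab were again among the higher ones, at 1.59, 1.77 and 1.54, beside Hist1h2ah, Hist1h2br, Hist1h3b, Hist1h3f, Hist1h4f, Hist1h4j, Hist1h4k and Hist4h4, at 1.53 to 2.08. The lower ones were Hist1h4i, at 0.625 (0.571 to 0.684), Hist3h2a, at 0.633 (0.536 to 0.744), Hist1h2bl and Hist1h2ao. Without cancer markers 16 of 59 were higher, against 10.7% of all genes, and 2 were lower, against 8.18%, and Hist1h4i was at 0.891 (0.762 to 1.04). The higher ones then included Hist1h2ap, at 1.56 (1.44 to 1.69), Hist1h1c, at 1.54 (1.41 to 1.67), and Hist1h1d, at 1.52 (1.27 to 1.81), and again Hist1h2ab, Hist1h2ah, Hist1h2br, Hist1h3b, Hist1h3f, Hist1h4d, Hist1h4f, Hist1h4h, Hist1h4k and Hist4h4. Hist1h2af, Hist1h4c and Hist2h2be made up the 16, and the lower ones were Hist1h4b and Hist2h4. Krt8 was also higher in these ENZ cells than in these control cells, as given above, and the part of carried-over cancer RNA in the ratios was not tested.

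Dividing immune cells were the histone-rich ones. The 138 control immune cells without cancer markers that had 10 or more division gene UMIs reached 3146 CPM (3067 to 3226), and the other 4046 had 326 CPM (319 to 334). In the ENZ library 94 such cells had 4543 CPM (4424 to 4665), and the others 413 CPM (403 to 423). The dividing immune cells had medians of 12318 and 11692 UMIs, so the limit of 10 UMIs was stricter for them than for cancer cells. With cells thinned to 8000 UMIs and called dividing at 5 or more UMIs, a setting chosen after seeing the data that kept every cancer cell but only 927 of 4184 control and 513 of 3078 ENZ immune cells, 118 control immune cells had 3249 CPM (3135 to 3366) and 1120 cancer cells 3725 CPM (3685 to 3765). For ENZ cells the levels were 4041 CPM (3889 to 4198) in 82 immune and 4041 CPM (3999 to 4084) in 1093 cancer cells. Hist1h3c stood at 111 and 3.81 CPM in dividing and other control immune cells, and Hist1h2bc at 76.9 and 57.4 CPM. Hist1h1a was an immune-cell member, at 40.5 CPM in dividing control and 54.0 CPM in dividing ENZ immune cells, whereas dividing cancer cells had 0.35 and 0.34 CPM. Hist3h2ba, a histone gene of chromosome 11, had 8.83 and 7.47 CPM in the same immune cells and 0.043 and 0.064 CPM in dividing cancer cells. These immune values rest on 17 and 9 UMIs, and the gene had under 20 UMIs over the cancer cells of each library.

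Non-dividing cancer cells were also compared with immune cells without cancer markers. In the control library 10 of 60 members were at least 2-fold higher in the cancer cells, against 30.7% of all genes, and 8 were lower, against 23.3%. In the ENZ library 8 of 61 were higher, against 28.2%, and 11 lower, against 23.3%. None of these counts exceeded the share of all genes. Median-of-ratios scaling would lower all log2 ratios of this comparison by 0.17 in control and 0.16 in ENZ cells. Hist1h1c was 3.83-fold (3.597 to 4.08), Hist1h1e 3.27-fold (3.08 to 3.46) and Hist1h2bc 2.91-fold (2.75 to 3.08) higher in the control cancer cells, and in the ENZ library they were 3.15-fold, 3.10-fold and 2.97-fold higher. Hist1h3c and Hist1h2af were lower in the cancer cells, with control ratios of 0.254 (0.209 to 0.308) and 0.102 (0.0609 to 0.163). In both libraries Hist1h1c, Hist1h1d, Hist1h1e, Hist1h2ac, Hist1h2bc, Hist1h2bg and Hist1h4i were higher in cancer cells, joined by Hist1h2br, Hist1h3d and Hist2h2ab in control and by Hist2h2aa1 in ENZ cells. Hist1h1a, Hist1h2ab, Hist1h2af, Hist1h2ag, Hist1h3b, Hist1h3c and Hist3h2ba were lower in both, joined by Hist1h2an in control and by Hist1h2ah, Hist1h2bl, Hist1h3a and Hist4h4 in ENZ cells. These immune cells included dividing ones. Against the 4046 control and 2984 ENZ immune cells below the division limit, a comparison chosen after seeing the data, 27 of 60 members were higher in control cancer cells, against 32.1% of all genes, and 4 lower, against 22.8%. Of 59 members in the ENZ cells 25 were higher, against 29.4%, and 4 lower, against 22.7%. The lower ones were then Hist1h1a, Hist1h2af and Hist3h2ba in both libraries, Hist1h3b in control and Hist4h4 in ENZ cells. Hist1h3c was at 0.842 (0.644 to 1.11) and Hist1h2ag at 0.918 (0.590 to 1.46) in the control library, and Hist1h2ab, at 1.40 (1.08 to 1.83), and Hist1h2an, at 1.27 (0.811 to 2.06), turned to the other side of 1. Hist1h1e was 5.59-fold (5.18 to 6.05), Hist1h1c 4.31-fold (4.03 to 4.62) and Hist1h2bc 2.99-fold (2.82 to 3.18) higher in control cancer cells. The median depth of these immune cells was 4093 and 4414 UMIs, below that of the cancer cells.

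By lineage, T-like cells had 903 and 1278 CPM in control and ENZ cells, NK-like cells 1192 and 1074 CPM, and dendritic-like cells 858 and 1272 CPM. Macrophage and monocyte-like cells had 418 and 557 CPM, and neutrophil-like cells, a cell type known not to divide, 622 and 710 CPM. The 4 division genes together were at 612 CPM in T-like, 376 CPM in NK-like and 172 CPM in neutrophil-like control cells. All control immune cells without cancer markers below the division limit had 103 CPM of them. Whether the neutrophil-like class also held dividing or other cells was not tested. In the control library Hist1h2bc was at 118 CPM and Hist1h1c at 86.6 CPM in neutrophil-like cells, 57.4 and 43.6 CPM in macrophage and monocyte-like cells and 30.3 CPM each in T-like cells, and Hist1h1b was at 49.2 CPM in neutrophil-like and 52.2 CPM in T-like cells. After thinning to 1000 UMIs a histone UMI was found in 34.9% (31.5 to 38.3%) of neutrophil-like, 30.9% of T-like, 25.4% of NK-like and 22.2% of macrophage and monocyte-like control cells. Before thinning these shares were 60.5%, 63.1%, 55.9% and 64.1%, at median depths of 2240, 4796, 4648 and 6718 UMIs.

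**Figure D5:**
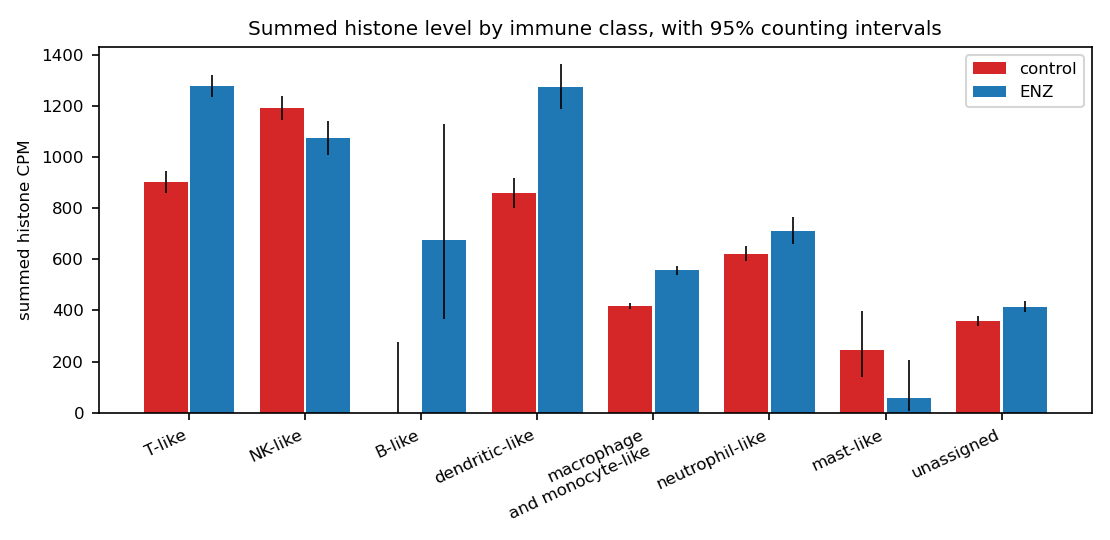
Summed histone CPM by immune class in control (red) and ENZ (blue) immune cells without cancer markers, with 95% counting intervals as bars. T-like, NK-like and dendritic-like cells lie above macrophage and monocyte-like cells, and B-like and mast-like cells rest on 10 or fewer cells per library.

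Many H2A and H2B genes lie head to head and share the DNA between their start sites. There were 13 head-to-head pairs of members, in all but 1 of them an H2A and an H2B gene 176 to 306 bases apart, and the H2B gene Hist1h2bh lay 660 bases from the H3 gene Hist1h3f. Partners could differ widely in level. Hist1h2ap had 398 CPM in dividing control cells and its partner Hist1h2br, 236 bases away, had 13.4 CPM, and Hist2h2ac had 89.7 CPM beside 2.98 CPM of Hist2h2be. Hist1h2ae and Hist1h2bg, 176 bases apart, had log2 ratios of dividing to non-dividing cells of 2.82 and 0.97. Hist1h2ac and Hist1h2bc, 251 bases apart, were both near 0, at 0.40 and -0.17.

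Promoters of 61 members could be matched in RefSeq by symbol or synonym (GRCm38.p6). In the 300 bases around the start site, CCAAT on either strand was found in 52 of 61 members, against 37.9% of all 27025 promoters, and TATAA in 48, against 25.5%. The octamer ATTTGCAT was found in 13, against 1.75%, all of them H2A or H2B genes. The letters AAACACA, known as the H1 box, were found in 9, against 7.14%, among them 5 of 6 H1 genes. Promoters of Hist1h1b and Hist1h1c are shown because both hold AAACACA and CCAAT while the genes differed 6.38-fold to 1.06-fold between dividing and non-dividing control cells. The 120 bases before each start site are given with matches to the 4 motifs in capitals, where a CCAAT on the other strand reads ATTGG and TATAA and its reverse TTATA can overlap.

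Hist1h1b, chr13:21780626-21780745, minus strand: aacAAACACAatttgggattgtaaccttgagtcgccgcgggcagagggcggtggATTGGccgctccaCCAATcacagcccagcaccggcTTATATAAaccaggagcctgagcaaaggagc

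Hist1h1c, chr13:23738687-23738806, plus strand: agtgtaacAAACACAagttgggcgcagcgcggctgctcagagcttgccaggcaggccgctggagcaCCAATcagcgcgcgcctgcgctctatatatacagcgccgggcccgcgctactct

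A match to these letters is a description and not a binding site. Across types, CCAAT was found in all 17 H2A, 16 H2B, 10 H3 and 6 H1 promoters matched but in 3 of 12 H4 promoters.

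Genes that act with the histone genes were counted from lists. The 11 replication-independent variants, which are made outside S phase as well, were led by H3f3b (H3.3), H2afz (H2A.Z) and H3f3a (H3.3). Of these 11, 5 were at least 2-fold higher in dividing cells in each library, against 4.64% of all genes in control and 4.95% in ENZ cells, and their median log2 ratio of 0.85 for control and 0.84 for ENZ cells was below that of the replication-dependent members. Their summed level in dividing cells was 7996 CPM in control and 6446 CPM in ENZ cells. In dividing cells 0 of them were 1.5-fold higher in the ENZ library, against 4.19% of all genes, and 1, the linker variant H1fx, was 1.5-fold lower, against 8.46%. H3f3b had 3831 and 2905 CPM and H2afz 1674 and 1445 CPM there.

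Of the 24 S phase genes 16 in control and 17 in ENZ cells were at least 2-fold higher in dividing cells, beside the same 4.64% and 4.95% of all genes. Of 15 genes of histone transcription and 3′ end processing, 0 passed 2-fold between dividing and non-dividing cells in either library. Slbp, the stem-loop binding protein, had 89.0 CPM for control and 85.3 CPM for ENZ dividing cells and 48.7 and 50.1 CPM in non-dividing cells. Npat, a coactivator of histone transcription, had 37.3 and 44.4 CPM in dividing and 35.7 and 39.4 CPM in non-dividing cells. Of 12 histone chaperones 4 were at least 2-fold higher in dividing cells in each library, among them Nasp, with 185 and 192 CPM against 68.2 and 66.1 CPM, and Asf1b, with 30.9 and 29.3 CPM against 3.15 and 2.70 CPM. Between the libraries 0 of the chaperones and 0 of the 24 S phase genes passed 1.5-fold in dividing or non-dividing cells, where 4.19% and 3.58% of all genes were higher and 8.46% and 8.14% lower. Of the 15 transcription and processing genes 0 were higher and 1, Zfp473, was lower in dividing ENZ cells, at 0.644 (0.359 to 1.13) from 34 and 22 UMIs, and 0 passed in non-dividing cells. Of 18 G2 and M phase genes 0 passed in dividing cells, and in non-dividing cells 0 were higher and 2 lower, the mitotic cyclin gene Ccnb2 at 0.607 (0.562 to 0.656) and Birc5 at 0.645 (0.594 to 0.700). The variant H1fx was lower in non-dividing cells too, as 1 of 11, at 0.526 (0.480 to 0.576). The S phase genes summed to 1815 CPM in control and 1775 CPM in ENZ dividing cells, and to 688 and 665 CPM in non-dividing cells.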

How the data were processed

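For 1 control and 1 ENZ library the authors deposited unfiltered matrices of raw UMI counts, with all barcodes, from a 3′ v2 kit per the labels. The files list 2438568 and 2239744 barcodes, more than the barcode list of that version holds, so the version is uncertain. The file headers name Cell Ranger 7.2.0, the submitters' processing notes Cell Ranger 2.1.1 and mm10, and the annotation and the treatment of intronic and multi-mapped reads were not given in the sources used here. The members and lists were chosen with earlier results of these data known. Counts were summed by class and library. Intervals at 95% were exact Poisson for CPM, conditional binomial for ratios and Clopper-Pearson for shares. UMIs mark molecules, but the intervals cover counting error only. Genes with at least 20 UMIs over both sides were compared, at 1.5-fold between libraries and 2-fold between classes. No doublet caller was run, and the limits on Ptprc and on cancer genes stand in its place. Immune cells were named from markers, needing at least 3 detected. Named were members of at least 5 CPM in any class, at most 30 by highest CPM, the leading member of each type, and members past the fold. Other limits on division, depth and immune cells, other scalings, and leaving out Hist1h1e or the deepest cells were tried. Gene IDs were matched to GENCODE M21 (32158 of 32285, all 67 members). Of 16 listed genes of transcription and 3′ end processing, 15 were found. Intervals and fold calls were tested on simulated counts, and thinning was checked on control dividing cells. Python 3.11.15, numpy 2.4.6, scipy 1.17.1, pandas 2.3.3 and matplotlib 3.10.9 were used.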

Additional observations from a re-analysis of the deposited data

Results flagged for a closer look

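Hist4h4, an H4 gene on chromosome 6, had opposite log2 ratios of ENZ to control in 2 cell types, 0.64 in immune cells without cancer markers and -0.28 in dividing cancer cells. It rested on 88 and 96 UMIs in the immune cells and on 263 and 218 UMIs in the dividing cancer cells, and the difference between the cell types was not tested.

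Barcodes with 10 to 100 UMIs, which belong to no cell class, also had a higher summed histone level in the ENZ library, with a ratio of 1.17 (1.08 to 1.27) from 1062 and 1653 histone UMIs.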

How the results depend on the processing

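No paired analysis was possible because only 1 library stands for each condition. All values here are log2 ratios of summed histone CPM, and in the alternatives run none changed sign. ENZ to control, the reported values were 0.24 in dividing, 0.32 in non-dividing and 0.17 in immune cells. With the division limit at 5 and 20 UMIs the non-dividing value was 0.38 and 0.26. With the split after thinning the dividing and non-dividing values were 0.20 and 0.33, with CPM averaged over cells 0.16 and 0.28. Leaving mitochondrial, ribosomal protein and rRNA-like genes out of the total, the non-dividing value was 0.33. With median-of-ratios scaling the values were 0.19, 0.27 and 0.10, and without the 5% of cells with the most UMIs 0.21, 0.29 and 0.11. In immune cells it was 0.36 without cancer markers and 0.40 at 8000 or more UMIs.

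Dividing to non-dividing, the reported values were 1.65 for control and 1.57 for ENZ cells. They were 1.59 and 1.46 with the limit at 5, 1.61 and 1.60 at 20, 1.72 and 1.60 with the split after thinning, 1.73 and 1.61 with CPM averaged over cells, 1.61 and 1.53 with the smaller total, 1.67 and 1.60 with median-of-ratios scaling, 1.74 and 1.66 without Hist1h1e, and 1.69 and 1.60 without the cells with the most UMIs.

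Cancer to immune cells, the reported values were 0.99 for control and 1.01 for ENZ cells. They were 1.82 and 1.64 without cancer markers, 0.64 and 0.42 for immune cells of 8000 or more UMIs, 1.797 and 1.73 with CPM averaged over cells, 0.75 and 0.78 with median-of-ratios scaling, 0.94 and 0.97 without Hist1h1e, and 1.59 and 1.60 without the cells with the most UMIs. In the control library it was 1.02 with the smaller total. The cause of these shifts was not tested.

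Of the counts of members past 1.5-fold, those for non-dividing cells ran from 10 to 16 and those for immune cells from 10 to 18 over the alternatives, around 13 and 15. With the reported settings 3.58% of all genes were higher and 8.14% lower in non-dividing cells, and 8.69% and 9.13% in immune cells. The counts of members 2-fold higher in dividing cells with a split after thinning, chosen after seeing the data, were 54 and 51. With the reported split they were 53 and 50, against 4.64% and 4.95% of all genes. Shares of all genes under these alternatives are not given here. Also chosen then, non-dividing cancer against immune cells below the division limit gave 31 of 60 and 29 of 59 members past 2-fold. There 32.1% and 29.4% of all genes were higher and 22.8% and 22.7% lower. With all immune cells without cancer markers 18 of 60 and 19 of 61 members were past 2-fold. In that comparison 30.7% and 28.2% of all genes were higher and 23.3% lower in each library. Members of low level are limited by their UMIs, and near-identical copies by reads that may be shared, which was not tested.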
